A study of Rattus norvegicus with 8 samples.

Results

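The miR-103 and miR-107 family was followed in miRNA sequencing of BMSCs, mesenchymal stem cells of rat bone marrow, a plastic-adherent stromal population able to give rise to bone, cartilage and fat. The members were chosen by name: every row whose ID was rno-miR-103 or rno-miR-107 with any locus number or arm. This gave 2 of 487 listed mature miRNAs, rno-miR-103-3p and rno-miR-107-3p, and both passed the filter on low counts with 243 others. The control group was 4 samples labelled as BMSC controls, and the treated group was 4 samples of the same cell type given dexamethasone, a synthetic glucocorticoid, at 10 µM for 48 h. The labels used here give no strain, age, passage or vehicle. They do not tie replicates to separate cultures, so a p-value here reflects the spread among these samples, which may be technical.

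miRNAs guide Argonaute proteins to messenger RNAs mainly through the seed, bases 2 to 8 of the mature strand. miR-103 and miR-107 are carried in introns of the pantothenate kinase genes, whose products catalyse the first step of coenzyme A synthesis, and in mice the family lowers insulin sensitivity by repressing caveolin-1 in fat. In human cells the family also represses Dicer, the enzyme that cuts miRNA precursors. Glucocorticoids reduce insulin sensitivity and are a standard component of the mixtures that drive marrow stromal cells toward fat or bone.

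The mature strands are shown because a single base separates the family members and sets how well their counts can be told apart. The sequences are those of RefSeq on the rat assembly GRCr8, 5′ to 3′, with the seed in capitals; both members were matched there by name.
rno-miR-103-3p: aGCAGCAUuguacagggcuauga
rno-miR-107-3p: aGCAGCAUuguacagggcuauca
Counted from the 5′ end, the difference between miR-103-3p and miR-107-3p is G22C, and 22 of 23 bases are identical. A read that ends before base 22 matches both strands. No source used here says how the authors assigned such reads, so the split between the members is uncertain, and the sum of both is given beside them. No other tested miRNA with a RefSeq mature sequence had the seed GCAGCAU.

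The precursor hairpins are shown because the same miR-103-3p comes from 2 loci, which the counts cannot tell apart. Capitals mark the 3p mature strand, at bases 52 to 74 of each hairpin.
Mir107: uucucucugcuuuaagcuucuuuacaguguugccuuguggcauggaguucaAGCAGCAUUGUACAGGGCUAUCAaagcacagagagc
Mir103a1: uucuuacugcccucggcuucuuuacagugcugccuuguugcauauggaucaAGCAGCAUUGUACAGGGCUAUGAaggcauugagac
Mir103a2: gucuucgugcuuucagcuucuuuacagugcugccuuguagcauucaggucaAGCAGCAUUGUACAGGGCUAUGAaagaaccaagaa
Mir107 (87 bases, chr1:241750418-241750504, minus strand, GRCr8) lies within the span of Pank1. Mir103a1 (86 bases, chr10:20748474-20748559, plus strand) lies within Pank3, and Mir103a2 (86 bases, chr3:138963227-138963312, plus strand) within Pank2, each on the strand of its host gene. Identity over the aligned hairpins was 81.1% between Mir107 and Mir103a1, 83.1% between Mir107 and Mir103a2 and 80.9% between the miR-103 hairpins. The table analysed here lists miRNAs, so the host genes' messenger RNAs have no values, and its rows for the family are both 3p arms.

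Library totals ran from 1835256 to 2639007 counts in control and from 1377881 to 1521505 in treated samples. All treated libraries were the shallower ones, so depth and treatment cannot be told apart between groups. The 9 listed miRNAs that mark mesenchymal cells were all detected, with a summed level of 323621 to 337504 CPM (each count scaled to a library of 1000000 counts) in control and 373417 to 399544 CPM in treated samples. Of these, 8 were in the test described below: 4 rose, 2 fell and 2 did not pass. Over all tested miRNAs 24.9% rose and 21.2% fell. Within the list miR-21-5p went from a mean of 68956 to 101442 CPM and miR-143-3p from 28820 to 22893 CPM. The sum therefore does not stand for each marker. Markers of other cell types were lower. Haematopoietic markers (7 of 8 detected, miR-144-3p at 0) summed to 443 to 481 CPM in control and 532 to 583 CPM in treated samples, and endothelial markers (2 of 2) to 1790 to 2000.3 against 1163 to 1331 CPM. Muscle markers (5 of 5) summed to 73.7 to 103.04 against 236 to 331 CPM and neural markers (3 of 4, miR-124-3p at 0) to 452 to 502 against 444 to 527 CPM. Epithelial markers (6 of 6) reached at most 19.1 CPM in any sample, and the hepatocyte marker miR-122-5p at most 13.8 CPM. The part of other cell types in the results on the family was not tested. In bulk samples a change in the cells present and a change in the RNA per cell cannot be told apart.

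miR-103-3p, the abundant member, rose by 20.6% in mean CPM after dexamethasone, while miR-107-3p, present at a far lower level, did not pass the test. The counts of miR-103-3p were 7589, 6392, 5289 and 6683 in control replicates 1 to 4, or 2876, 2722, 2882 and 3004 CPM. In treated replicates 1 to 4 the counts were 4956, 5515, 5159 and 4379, or 3421, 3625, 3630 and 3178 CPM. The lowest treated sample, replicate 4, lay above the highest control sample, also replicate 4, so the groups did not overlap. The mean went from 2871 ± 116 to 3463 ± 214 CPM (SD, n = 4 each; exact two-sided permutation p = 0.0286). In edgeR's quasi-likelihood test over all 245 tested miRNAs the log2 fold change was 0.30 ± 0.06 (SE; 95% interval 0.16 to 0.43), a 1.23-fold rise with an interval of 1.12 to 1.35, at a Benjamini-Hochberg adjusted p of 0.00194. Of all tested miRNAs 46.1% passed this threshold, 24.9% as rises and 21.2% as falls, and in 42.0% the CPM of the groups did not overlap, so a called rise was common in these libraries. The rise of miR-103-3p was a small one among them. In all 66 tested miRNAs had a higher log2 fold change, and 7 of the 61 called rises were smaller.

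**Figure D1:**
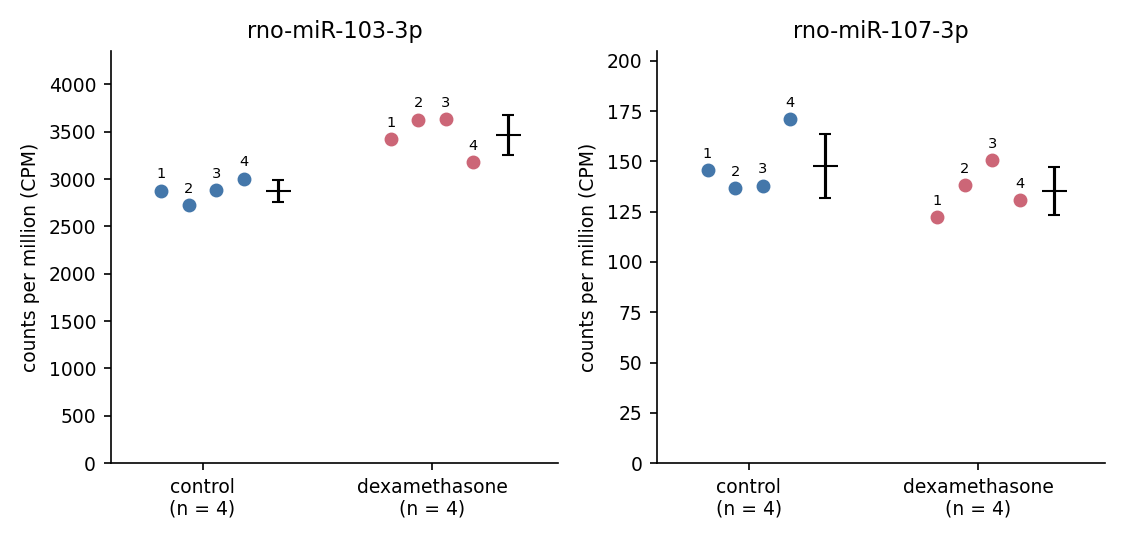
Levels of rno-miR-103-3p (left) and rno-miR-107-3p (right) in CPM by sample; numbers are replicates, and black marks are the mean and SD of 4 samples. For miR-103-3p all treated samples, 3178 CPM and above, lie over the highest control at 3004 CPM; for miR-107-3p the groups overlap.

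The call for miR-103-3p depended on the scaling of the libraries. With upper quartile scaling the log2 fold change was 0.15 and the adjusted p in edgeR 0.121, so the call was lost. That scaling set the median log2 fold change of all tested miRNAs at -0.15, against 0.00 with TMM, and 41 rose and 71 fell of 245, against 61 and 52; relative to the median, miR-103-3p stood at 0.29 in both fits. In the authors' deposited table the log2 fold change of miR-103-3p was 0.27 with an adjusted p of 0.000675, from a test that the sources used here do not name.

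miR-107-3p was counted 384, 321, 253 and 380 times in control replicates 1 to 4, or 145.5, 136.7, 137.9 and 170.8 CPM. In treated replicates 1 to 4 it was counted 177, 210, 214 and 180 times, or 122.2, 138.02, 150.6 and 130.6 CPM. Control replicate 4 was the highest sample and treated replicate 1 the lowest, and the groups overlapped. The mean was 148 ± 15.9 CPM without and 135 ± 12.04 CPM with dexamethasone (SD, n = 4 each; exact two-sided permutation p = 0.286). The log2 fold change was -0.10 ± 0.10 (SE), with an adjusted p of 0.463 in edgeR, and its 95% interval ran from -0.32 to 0.12, or 0.803-fold to 1.08-fold. Counting error by itself gives a coefficient of variation of 5.10% to 7.52% per library for miR-107-3p and 1.15% to 1.51% for miR-103-3p. The observed coefficient of variation between replicates was 10.7% in control and 8.89% in treated samples for miR-107-3p, and 4.02% and 6.17% for miR-103-3p. In the authors' deposited table miR-107-3p stood at -0.12 on the log2 scale with an adjusted p of 0.594.

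**Figure D2:**
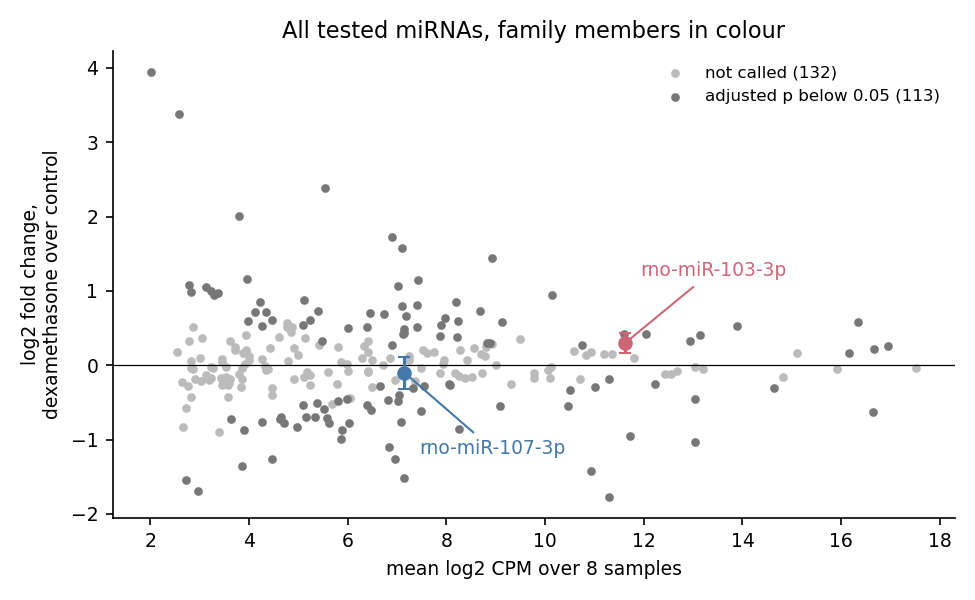
Log2 fold change, dexamethasone over control, against mean log2 CPM scaled by TMM for the 245 tested miRNAs (dark grey: edgeR adjusted p below 0.05), with 95% intervals for the family members. miR-103-3p lies above 0 and miR-107-3p has an interval that spans 0.

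Summed over both members, the family rose, since miR-103-3p supplied nearly all of its counts. The sum was 3021, 2858, 3020 and 3174 CPM in control replicates 1 to 4 and 3543, 3763, 3781 and 3309 CPM in treated replicates 1 to 4. The groups did not overlap, and the mean went from 3018 ± 129 to 3599 ± 221.5 CPM (SD, n = 4 each; exact two-sided permutation p = 0.0286). The sum was also entered as a single row. If each read was counted once, that row does not depend on how reads were split between the members. The sum had a log2 fold change of 0.28 ± 0.06 (SE), at an adjusted p of 0.0028 in edgeR. Its fold was 1.22 with a 95% interval of 1.11 to 1.33. With upper quartile scaling its log2 fold change was 0.13 and its adjusted p in edgeR 0.175, again short of the threshold.

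Among all 487 listed miRNAs, where rank 1 is the most abundant, miR-103-3p ranked 27 or 28 in the control samples and 23 to 25 in the treated samples. miR-107-3p ranked 88 to 98 in control and 99 to 104 in treated samples, so the members moved apart in rank. The CPM of miR-107-3p overlapped between the groups, and a rank also depends on the levels of other miRNAs. How many other miRNAs separated by rank was not counted. In descending order of mean CPM came miR-103-3p in treated samples, miR-103-3p in control, miR-107-3p in control and miR-107-3p in treated samples, and the last pair did not differ beyond its spread. Library preparation captures some miRNAs better than others, so the gap between the members is one of counts, not of molecules.

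In the deposited counts, the balance between the members shifted toward miR-103-3p after dexamethasone. miR-107-3p made up 4.82%, 4.78%, 4.57% and 5.38% of the family's counts in control replicates 1 to 4, and 3.45%, 3.67%, 3.98% and 3.95% in treated replicates 1 to 4. All treated samples lay below all controls, and the mean share fell from 4.89 ± 0.348% to 3.76 ± 0.252% (SD, n = 4 each). The exact two-sided permutation test gave p = 0.0286, the lowest value possible with 70 assignments, and 0.0357 after Benjamini-Hochberg adjustment over 5 single-value tests. Put as a ratio, the counts of miR-103-3p per count of miR-107-3p averaged 19.5 ± 1.40 without and 25.7 ± 1.83 with dexamethasone (SD, n = 4 each). The 95% Wilson intervals of single libraries, which cover counting error alone, reached from 4.05% to 5.93% over the controls and from 2.98% to 4.55% over the treated samples, so intervals of some control and treated libraries overlapped although the shares did not. The share is a ratio within a library and does not depend on scaling between libraries. It does depend on how reads that match both members were assigned, which is not known and was not tested. With all libraries thinned to 1377881 counts, the change in the share was -1.095 percentage points, against -1.12 at full depth.

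**Figure D3:**
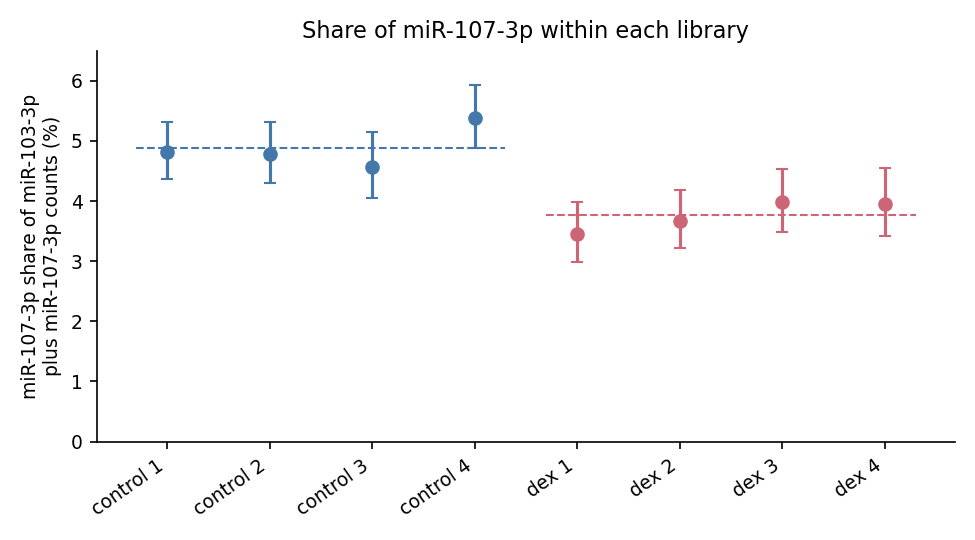
Share of miR-107-3p in the summed counts of miR-103-3p and miR-107-3p by sample in percent, with 95% Wilson intervals; dashed lines are group means (dex, dexamethasone). The treated shares, 3.45% to 3.98%, lie below the control shares, 4.57% to 5.38%.

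Shifts of this kind were frequent between miRNAs that share a seed. Among 100 pairs of tested miRNAs with the same seed, drawn from 29 seeds, the within-library log2 ratio of the groups did not overlap in 48.0%. The log2 ratio of miR-107-3p to miR-103-3p, with 1 count added to each, changed by -0.39 from control to treated samples. In 35 of the 100 pairs the change was larger in size, and the median size was 0.27. Pairs from one seed share members, so they are not independent.

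The family's first bases also occur in a wider set of miRNAs that carry AGCAGC near the 5′ end, the group of miR-15 and miR-107, whose other members are known for repressing cyclins and other cell cycle genes. They are shown because the same 6 letters sit 1 base further in, which gives another seed (capitals).
rno-miR-16-5p: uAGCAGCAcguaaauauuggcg
rno-miR-15b-5p: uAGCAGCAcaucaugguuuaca
rno-miR-195-5p: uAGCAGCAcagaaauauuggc
rno-miR-497-5p: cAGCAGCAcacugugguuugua
rno-miR-322-5p: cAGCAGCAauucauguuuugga
rno-miR-503-5p: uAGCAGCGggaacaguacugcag
AGCAGC starts at base 1 in miR-103-3p and miR-107-3p and at base 2 in these 6. Of 693 mature rat miRNAs in the RefSeq table, 8 (1.15%) hold AGCAGC within the first 9 bases of the strand, the 8 printed here. The group has 9 members in the counts, and miR-15a-5p was not among the 8 matched.

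By level, miR-103-3p was the next member of this group after miR-16-5p, whose mean was 193157 ± 4462 CPM without and 184413 ± 5239 CPM with dexamethasone (SD, n = 4), and miR-107-3p lay below miR-322-5p and miR-15b-5p. In control miR-107-3p lay above miR-503-5p, with means of 148 and 116 CPM. In treated samples it lay below miR-503-5p, with means of 135 and 254 CPM. Of the 6 other tested members 2 rose, 1 fell and 3 did not pass, with a median log2 fold change of 0.09 against 0.00 over all tested miRNAs, where 61 rose and 52 fell of 245. miR-322-5p, the next in level after miR-103-3p, had a log2 fold change close to that of miR-103-3p, at 0.27 ± 0.07 (SE), with an adjusted p of 0.00803 in edgeR. For miR-503-5p it was 1.15 ± 0.11 and for miR-497-5p -0.70 ± 0.18 (SE), with adjusted p in edgeR of 7.20e-06 and 0.00644. With upper quartile scaling 1 member rose and 2 fell, the second fall being miR-16-5p, which also fell with a filter of 10 CPM. miR-322-5p was short of the threshold with that scaling and without control replicate 1, at an adjusted p in edgeR of 0.267 and 0.0535. miR-15a-5p, listed too, had at most 2 counts in a library and was not tested.

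**Figure D4:**
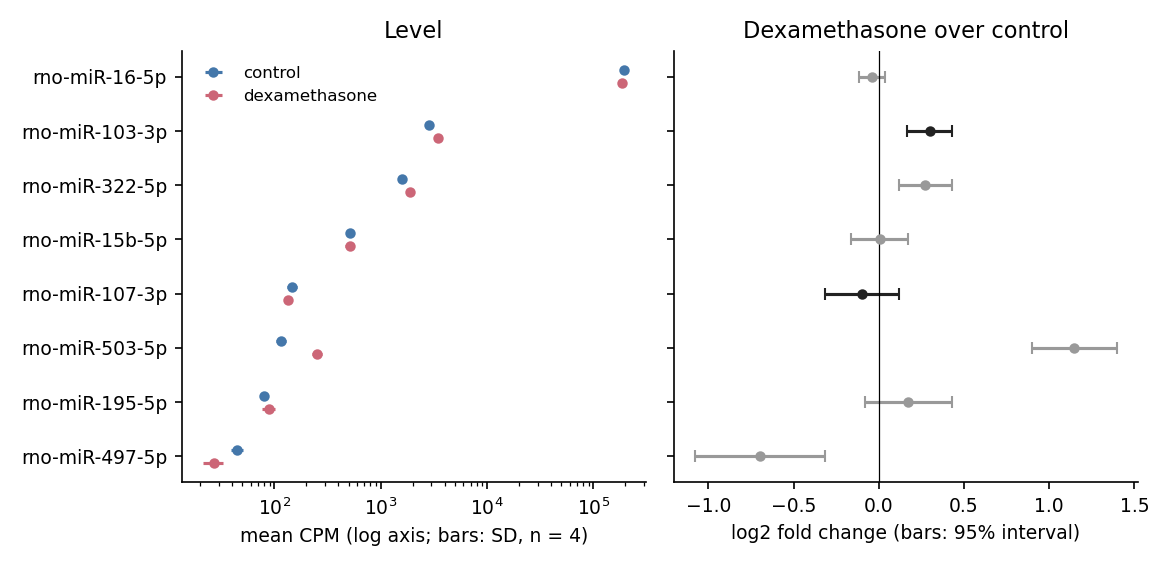
Mean CPM on a log axis (left, SD of 4 samples) and log2 fold change with 95% interval (right) for the tested miRNAs that carry AGCAGC near the 5′ end, with miR-103-3p and miR-107-3p in black on the right. Fold changes run from -0.70 for miR-497-5p to 1.15 for miR-503-5p, and those of miR-103-3p and miR-107-3p lie between.

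miR-103-3p and miR-107-3p together held 1.54%, 1.45%, 1.47% and 1.62% of the counts of this group in control replicates 1 to 4 and 1.93%, 1.96%, 1.97% and 1.69% in treated replicates 1 to 4. The groups did not overlap, with treated replicate 4 nearest to the controls. The mean share rose from 1.52 ± 0.0785% to 1.89 ± 0.132% (SD, n = 4 each; exact two-sided permutation p = 0.0286, adjusted p = 0.0357 over 5 tests). This rise depended on miR-16-5p, the bulk of the denominator. With miR-16-5p left out, the family's share was 56.3 ± 0.939% without and 56.6 ± 1.08% with dexamethasone (SD, n = 4 each; exact two-sided permutation p = 0.686). In mean CPM the family's sum was 1.19-fold and that of the less abundant other members 1.18-fold the control value.

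By mean CPM over all 8 samples, the tested miRNAs ranked next to miR-103-3p were miR-221-3p above and miR-191a-5p below it. In treated samples alone that order was reversed. miR-191a-5p, used like miR-103 as a reference in quantitative PCR of human tissues, rose as well, with means of 2703 ± 50.9 CPM without and 3538 ± 488 CPM with dexamethasone (SD, n = 4) and a log2 fold change of 0.42 ± 0.10 (SE) at an adjusted p of 0.00412 in edgeR. miR-221-3p, which represses cell cycle inhibitors, moved the other way, at -0.95 ± 0.09 on the log2 scale (SE) with an adjusted p of 7.20e-06 in edgeR. The miRNAs ranked next to miR-107-3p over all 8 samples, miR-140-3p above and miR-503-3p below, both rose. miR-107-3p had a higher mean than either in control, where theirs were 122.4 and 104.2 CPM, and a lower one than either in treated samples, where theirs were 161.1 and 178.5 CPM. Their log2 fold changes were 0.43 ± 0.12 and 0.80 ± 0.12 (SE), with adjusted p in edgeR of 0.00918 and 1.48e-04; miR-140-3p missed the threshold with upper quartile scaling, at an adjusted p of 0.0779 in edgeR.

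The miRNAs whose pattern over the 8 samples was most like that of miR-103-3p, among 111 others with a mean of at least 100 CPM, were miR-29a-3p, miR-30a-5p and miR-30d-5p, with Pearson r of 0.982, 0.972 and 0.971 between log2 CPM values. All of them rose, with log2 fold changes of 0.53, 0.81 and 0.58, each larger than that of miR-103-3p. For miR-107-3p the closest were miR-1839-5p, miR-339-5p and miR-210-3p, with Pearson r of 0.813, 0.666 and 0.663, a looser likeness. miR-339-5p fell, at -0.48 ± 0.13 on the log2 scale (SE), with an adjusted p of 0.00806 in edgeR. miR-1839-5p stood at -0.20 with an adjusted p of 0.156 in edgeR, and fell with upper quartile scaling, at an adjusted p of 0.0176. miR-210-3p, a miRNA induced by hypoxia, was at the threshold at -0.31, with an adjusted p of 0.0444 in edgeR, and lost its call in 8 of 18 alternatives. These correlations used CPM values scaled by TMM. Such correlations share libraries and the difference between groups, and are given as a description.

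Other miRNAs linked to metabolism moved in both directions, in shares close to those of all tested miRNAs. In a list of miRNAs tied to insulin, glucose and lipid metabolism, 3 of 12 tested members rose, 2 fell and 7 did not pass. Of all tested miRNAs 24.9% rose and 21.2% fell. The list's median log2 fold change was 0.08 against 0.00 over all tested miRNAs. Its values ran from -1.54 to 0.53, and the 3 tested members highest in level are described here. miR-29a-3p, which represses collagens and is also linked to insulin signalling, had means of 12765 ± 868 CPM without and 18056 ± 2148 CPM with dexamethasone (SD, n = 4), at an adjusted p of 1.49e-04 in edgeR. miR-26a-5p had means of 7916 ± 282 and 10326 ± 1172 CPM (SD, n = 4), at an adjusted p of 3.67e-04 in edgeR. miR-143-3p, which promotes fat cell formation, fell, with means of 28820 ± 605 and 22893 ± 2075 CPM (SD, n = 4), at an adjusted p of 0.00525 in edgeR.

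Among miRNAs described as promoting adipogenesis, 5 of 11 tested members rose and 2 fell (median log2 fold change 0.36), including miR-21-5p at 0.58 ± 0.06 and miR-30d-5p at 0.58 ± 0.08 (SE). The falls were miR-143-3p and miR-210-3p. Among those described as restraining it, 1 of 9 rose and 2 fell (median -0.11), the falls being miR-31a-5p at -1.04 ± 0.06 (SE) and miR-221-3p. miR-27b-3p stood at -0.11 with an adjusted p of 0.0758 in edgeR. In that last list 5 fell with upper quartile scaling and 0 rose, and 5 fell with library sizes that left out the 10 most abundant miRNAs, while 4 fell with the 10 CPM filter, with thinning and without treated replicate 4. The lists overlap in some members. The list of promoting miRNAs also holds several of the miR-30 family, so its members are not independent. Over the 18 alternative settings 4 to 6 members of the promoting list rose and 1 to 2 fell. Each count by direction can be read against the share of all tested miRNAs, 24.9% for rises and 21.2% for falls with TMM. With upper quartile scaling 41 of 245 tested miRNAs rose and 71 fell.

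Over the 18 alternative settings the log2 fold change of miR-103-3p ran from 0.15 to 0.37 and passed the threshold in 17, all but upper quartile scaling. It was highest, 0.37, without treated replicate 4, the treated library with the lowest level of miR-103-3p. The log2 fold change of miR-107-3p ran from -0.26 to -0.05 and passed in none of the 18, with an adjusted p in edgeR from 0.068 (upper quartile scaling) to 0.727 (without control replicate 4).

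**Figure D5:**
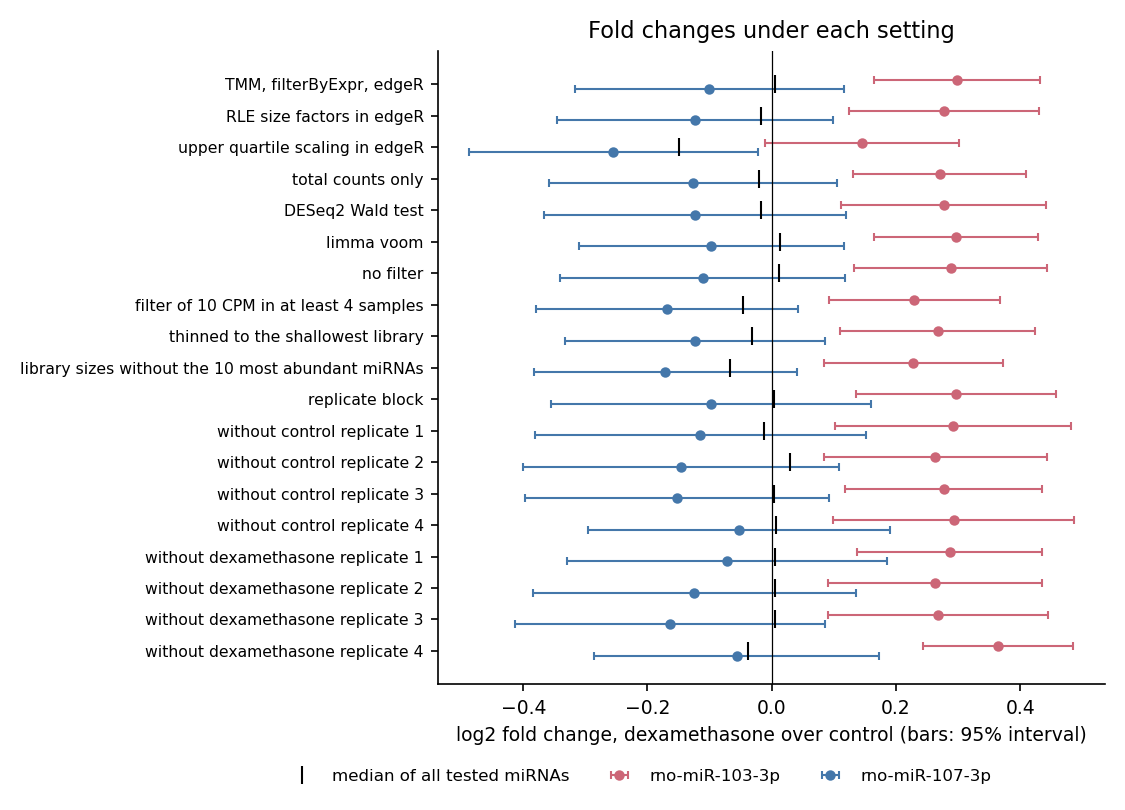
Log2 fold change with 95% interval of miR-103-3p and miR-107-3p under each setting of scaling, test, filter, depth and samples; black ticks are the median over all tested miRNAs in that setting. miR-103-3p runs from 0.15 to 0.37 and miR-107-3p from -0.26 to -0.05, and upper quartile scaling moves the members and the median together.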

How the data were processed

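The data were 8 miRNA sequencing libraries, 4 control and 4 dexamethasone, grouped by sample title. Per the labels' protocols, RNA was extracted with a miRNA kit and libraries were built with a kit for total RNA. Bowtie 1.0 and the rat build mRatBN7.2 appear in the submitters' processing notes; no counter or annotation release is named. The authors deposited whole-number counts for 487 mature miRNAs. The deposited CPM were checked and equal each count over its column total to within 4.98e-05. Other columns, per the file headers, are the authors' log2 fold change, p-value and adjusted p.

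Counts went into edgeR 4.0.16 under R 4.3.3: filterByExpr, TMM factors, a quasi-likelihood test with group as its single term and Benjamini-Hochberg adjustment at 0.05, first checked on simulated data; 245 miRNAs were tested. SE is the size of the log2 fold change over the square root of F, and intervals use the fit's degrees of freedom. The sum of both members was fitted in place of their rows with the same scaling factors. Single values were compared by exact two-sided permutation (SciPy 1.17.1). A count of 0 allowed 3 counts, or 1.14 to 2.18 CPM, counting error only. Replicate pairs differed by a chi-square per degree of freedom of 8.56 to 57.3. Pairs with treated replicate 1 gave the highest values, 43.4 to 57.3, and the other pairs reached at most 23.4. Alternatives were RLE and upper quartile scaling, total counts, DESeq2 1.42.0, limma 3.58.1 voom, no filter, a filter of 10 CPM in 4 samples, thinning, library sizes that left out the 10 most abundant miRNAs, a replicate block and leaving out each replicate. Leaving out replicates for the CPM tests was added after seeing the data.

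The named miRNAs were both members, for each member the 3 most alike in pattern (mean of at least 100 CPM) and its neighbours in mean CPM over 8 samples, the AGCAGC group, and the 3 tested miRNAs highest in level from each other list. Members and lists were chosen with earlier results of these data known. Planned tests of the 5p arms were not run, as no such row was in the table analysed.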

Additional observations from a re-analysis of the deposited data

Results flagged for a closer look

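In the share of miR-103-3p and miR-107-3p within the AGCAGC group, treated replicate 4 stood apart from the other treated samples, at 1.69% against 1.93% to 1.97%. miR-195-5p, a member of that group, stood at 71.1 CPM in treated replicate 3, far below the other treated samples. The gap to the nearest sample was 0.868 of the range for the share and 0.963 for miR-195-5p. Dixon's criterion flags about 1 in 20 groups by chance, and 22 groups were examined. These groups share samples, so they are not independent.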

How the results depend on the processing

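Upper quartile scaling was the setting in which miR-103-3p and the summed row lost their calls (log2 fold change 0.15 and 0.13, adjusted p in edgeR 0.121 and 0.175). With the replicate block the values were 0.30 and 0.28, with adjusted p in edgeR of 0.0104 and 0.0138. The labels do not say whether replicate numbers pair the samples. Correlations of deviations between same-numbered samples ran from -0.211 to 0.0762. They gave no sign of pairing, but weak correlations cannot settle whether the samples were paired. Under the block 97 miRNAs were called against 113, and no control sample correlated best with the treated sample of its own number. The exact tests on pairs cannot go below p = 0.125, so the share of miR-107-3p (-1.12 percentage points) and the family's share of the AGCAGC group (0.367) missed the threshold under that replicate block. The change of 0.367 percentage points was from a control mean of 1.52%. Without miR-16-5p the family's share changed by 0.316 percentage points from a control mean of 56.3% (exact permutation p = 0.686). Leaving out 1 replicate, where exact p cannot go below 0.0571, gave -1.23 to -0.96 for the share of miR-107-3p, 0.340 to 0.432 for the share of the group, 537 to 688 CPM for the difference in miR-103-3p and 520 to 677 CPM for the sum. miR-15b-5p, at 0.0049 (log2 fold change), turned negative with RLE (-0.0174), upper quartile (-0.149), total counts (-0.0204), DESeq2 (-0.0171), no filter (-0.0053), the 10 CPM filter (-0.0640), thinning (-0.0245) and library sizes that left out the 10 most abundant miRNAs (-0.0668), and ran from -0.0521 to 0.0488 without single replicates. miR-107-3p had 177 to 384 counts per library, which limits its precision; miR-497-5p, at 30 to 113, had fewer. The causes were not tested.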
